A study of Mus musculus with 9 samples.

Results

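The Dlx and Msx genes are 8 homeobox transcription factor genes, Dlx1 to Dlx6, Msx1 and Msx2, and they were described here in adult dental, embryonic dental and pluripotent mouse cells. They were found by gene symbol in the deposited annotation of a whole-transcript microarray, where each of the 8 had exactly 1 transcript cluster (the set of probes that reads a gene) among 65956 clusters in all. Total RNA had been hybridised to 9 arrays, 3 for each of 3 groups. The adult group held live GFP-positive cells flow-sorted from Sox2-GFP mice at postnatal day 30, out of the labial cervical loop, which is the epithelial niche at the growing end of the incisor. The embryo group held GFP-positive cells sorted alike at E14.5 out of the epithelium of the incisor, also of Sox2-GFP mice. The mESC samples were commercially obtained mouse embryonic stem cells, and the sources used here name neither their line nor the kind of Sox2-GFP allele. Each dental sample pooled several animals, and all samples are labelled as biological replicates, although 2 embryo arrays share a column name in a second deposited table and may be 1 sample. Whether the mESC replicates came from separate cultures is not stated, so the p-values rest on a sample-to-sample spread that may be technical.

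Distal-less (Dlx) and muscle-segment (Msx) homeobox proteins bind DNA through a homeodomain that prefers sites with a TAAT core. The 6 Dlx genes of mammals lie in 3 pairs, each pair transcribed towards each other and sharing enhancers, and their nested use in the pharyngeal arches patterns the upper and lower jaw. In teeth, Dlx3 is known from human mutations that impair enamel and hair, Msx1 from mouse mutants whose teeth arrest early because the dental mesenchyme fails, and Msx2 from mouse mutants with defective enamel. Msx and Dlx genes respond to BMP and FGF signals that pass between dental epithelium and mesenchyme.

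In the coordinates of the authors' annotation, Dlx1 (plus strand, chromosome 2 from 71528113 to 71533981) and Dlx2 (minus strand, 71543408 to 71546754) face each other across 9426 bases. Dlx3 (plus strand, chromosome 11 from 95120089 to 95125296) and Dlx4 (minus strand, 95140447 to 95146263) are 15150 bases apart, and Dlx6 (plus strand, chromosome 6 from 6863334 to 6868568) and Dlx5 (minus strand, 6877801 to 6882085) are 9232 bases apart. Msx1 lies alone on the minus strand of chromosome 5 from 37820485 to 37824585, and Msx2 on the minus strand of chromosome 13 from 53466881 to 53473074. All 8 are protein-coding, and all 8 share their start or end with the same gene in assembly GRCm38.p6. Each Dlx pair also has a noncoding gene on the strand opposite one partner. These are Dlx1as at Dlx1, Dlx4os at Dlx4 (chromosome 11 from 95145053 to 95159047, plus strand), and Dlx6os1, also called Evf2, which runs across Dlx6 (chromosome 6 from 6820189 to 6871633, minus strand).

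RefSeq promoter sequences of GRCm38.p6, 250 bases before to 50 bases after a transcript start, were given for Dlx1, Dlx2, Msx1 and Msx2 among the members and for Dlx4os and Dlx6os1. They are shown in pairs because they belong to different expression patterns described further on: Dlx2 and Msx2 were high in both dental groups, and Dlx4os and Dlx6os1 were higher in adult cells than in embryo cells, where they were near background. The 4 windows are chr2:71546705-71547004 (minus strand), chr13:53472731-53473030 (minus strand), chr11:95144803-95145102 (plus strand) and chr6:6869484-6869783 (minus strand, 1 of 2 starts of Dlx6os1), written 5′ to 3′. Capitals mark a homeodomain-type motif, TAATTA or TAATTG on either strand (TAATTG reads CAATTA on the other).
Dlx2: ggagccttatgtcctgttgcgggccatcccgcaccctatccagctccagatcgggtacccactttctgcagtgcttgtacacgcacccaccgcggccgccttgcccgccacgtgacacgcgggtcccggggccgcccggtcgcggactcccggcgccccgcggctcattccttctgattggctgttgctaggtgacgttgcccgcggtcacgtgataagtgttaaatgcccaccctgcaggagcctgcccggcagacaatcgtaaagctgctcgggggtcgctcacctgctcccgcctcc
Msx2: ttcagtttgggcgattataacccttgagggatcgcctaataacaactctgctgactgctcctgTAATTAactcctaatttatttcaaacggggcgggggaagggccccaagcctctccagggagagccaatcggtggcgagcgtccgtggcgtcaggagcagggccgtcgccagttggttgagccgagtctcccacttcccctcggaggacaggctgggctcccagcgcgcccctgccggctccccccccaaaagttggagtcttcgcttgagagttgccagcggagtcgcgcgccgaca
Dlx4os: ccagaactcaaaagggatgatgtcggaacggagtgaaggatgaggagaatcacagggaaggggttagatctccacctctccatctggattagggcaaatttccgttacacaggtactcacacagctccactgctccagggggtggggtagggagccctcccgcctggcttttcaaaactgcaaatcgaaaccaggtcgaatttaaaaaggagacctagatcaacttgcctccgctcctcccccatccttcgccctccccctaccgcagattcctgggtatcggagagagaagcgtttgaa
Dlx6os1: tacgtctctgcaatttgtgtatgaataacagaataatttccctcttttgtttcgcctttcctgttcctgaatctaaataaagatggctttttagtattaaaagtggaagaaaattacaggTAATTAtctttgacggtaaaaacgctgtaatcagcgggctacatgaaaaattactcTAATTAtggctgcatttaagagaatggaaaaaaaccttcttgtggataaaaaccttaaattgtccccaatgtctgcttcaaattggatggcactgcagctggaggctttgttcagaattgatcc
The Dlx2 promoter is GC-rich, with 66.3% G and C against a median of 52.7% over all 32851 promoters, and the Dlx1 and Msx1 promoters are alike at 69.3% and 70%. Msx2 has 61%, Dlx4os 53.3% and the printed Dlx6os1 start only 35.7%. A motif occurs once in the Msx2 window and 2 times in each of the 2 Dlx6os1 windows, and in none of those of Dlx1, Dlx2, Msx1 and Dlx4os. At least 1 motif is found in 12.4% of all promoters and 2 or more in 1.7%. A match is only a match of letters in this window.

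The values are log2 signals normalised by the authors, so a difference of 1 is a doubling, and levels are compared for the same gene between groups and never between genes. The 5222 negative-control probe sets had a median log2 signal of 4.81, with the middle part of their values from 3.6 to 6.41, and a gene near that median has no reliable level. A difference from a group within the middle range of the controls may understate the change, so folds of this fit are given only where both groups lie above it. Differences were tested with limma in 1 fit of all 9 arrays over the 39601 clusters that carry a gene symbol. A cluster was called at a Benjamini-Hochberg adjusted p under 0.05 and a log2 difference of at least 1 in either direction. Adult replicate 1 deviated most from its group, its clusters having a standard deviation of 0.27 about the mean of the group, where the other arrays had 0.167 to 0.254. Sox2, the gene of the sort, had log2 signals of 8.75, 10.49 and 10.26 in adult cells, 11.68, 12.24 and 11.66 in embryo cells, and 14.31, 14.18 and 13.99 in mESC, so adult replicate 1 was also the lowest in Sox2.

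The 8 genes fell into several patterns, which the plot of signals on each array shows. Dlx3 and Dlx5 were high in adult cells, lower in embryo cells and lowest in mESC. Dlx4 and Dlx6 had group means above the control median only in adult cells, that of Dlx4 still inside the middle range of the controls. Dlx2 and Msx2 were high in both dental groups without a called difference between them, and Dlx1 and Msx1 had means within the middle range of the controls in every group, with no array above 6.63 for Dlx1 or above 5.93 for Msx1. Of the 8 genes, limma called 4 higher and 0 lower in adult than in embryo cells, where 2.83% of all clusters tested were called higher and 3.59% lower (6.42% in all). The median difference (adult minus embryo) was 1.18 over the 8 genes and -0.007 over all clusters. Without adult replicate 1 the count was 3 and the median 1.2, and with the 2 like-named embryo arrays averaged the count was 2. In such sorted pools, more cells with a transcript and more transcript per cell cannot be told apart.

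**Figure D1:**
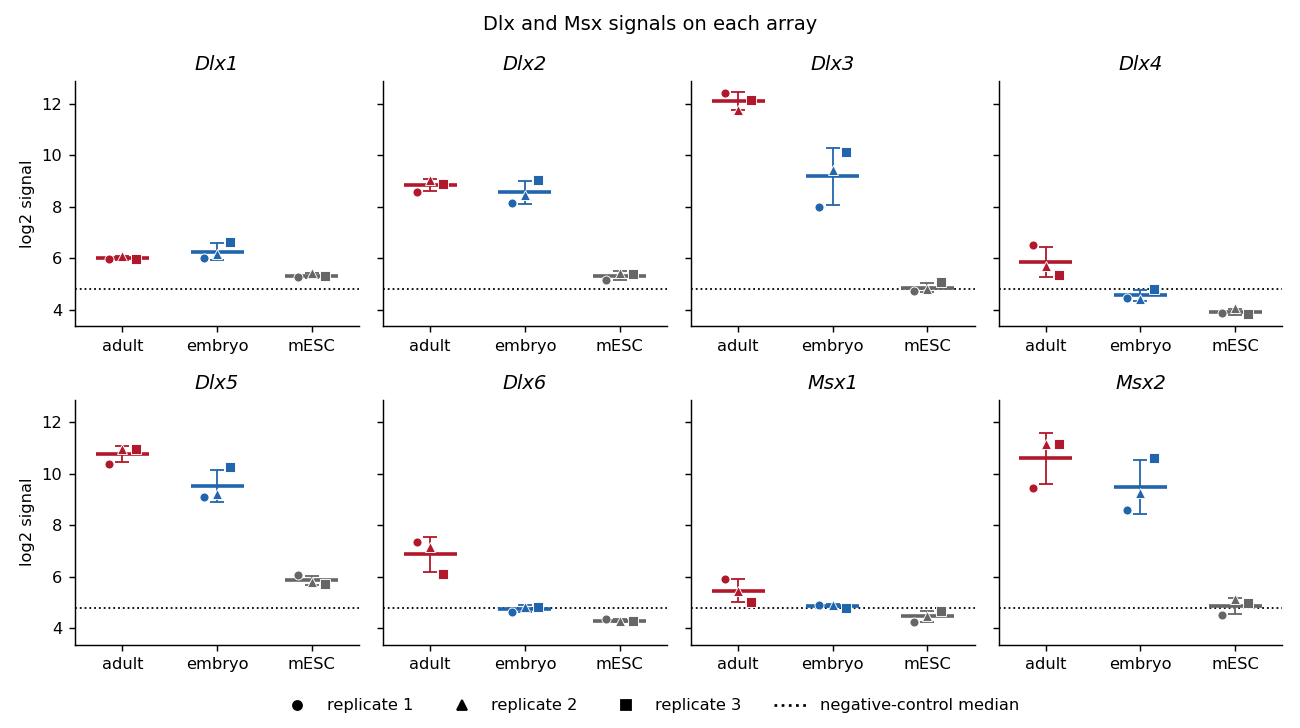
Log2 signal of each Dlx and Msx gene (vertical axis) on the 3 adult, 3 embryo and 3 mESC arrays. Symbols are single arrays, thick lines the group means, error bars 1 SD (n = 3), and the dotted line the negative-control median of 4.81. Dlx3 is at 11.76 to 12.43 in adult cells, above all its embryo and mESC arrays, and Dlx4, Dlx6 and Msx1 lie near the dotted line in embryo cells and mESC.

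Dlx3, the member most closely tied to enamel, had the largest difference between the dental groups. Its log2 signals were 12.43, 11.76 and 12.17 in adult cells, 7.99, 9.44 and 10.14 in embryo cells, and 4.73, 4.81 and 5.07 in mESC. The 3 groups do not overlap, the embryo arrays are the most spread, and the mESC arrays sit near the control median. Dlx3 was 7.62-fold higher in adult than in embryo cells (log2 difference 2.93 ± 0.48 SE, limma adjusted p = 0.00527), and this call held under all 21 alternative settings, with differences of 2.33 to 3.4. It was higher than in mESC by 7.25 ± 0.48 in adult cells (adjusted p = 1.78e-05) and by 4.32 ± 0.48 in embryo cells (adjusted p = 0.000435).

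Dlx4, its convergent neighbour, had signals of 6.51, 5.72 and 5.34 in adult cells, 4.48, 4.41 and 4.8 in embryo cells, and 3.89, 4.06 and 3.83 in mESC. All embryo and mESC values lie under the control median of 4.81, so the adult difference is measured against background and may understate any change. Dlx4 rose by 1.29 ± 0.27 in adult against embryo cells (adjusted p = 0.0151), with the highest value on adult replicate 1. Without that array the difference was 0.97 (adjusted p = 0.0085), just under the size required. The call was also lost in a fit of the adult and embryo arrays alone (1.29, adjusted p = 0.0655), without embryo replicate 2 (1.22, adjusted p = 0.0596), and after averaging 2 embryo arrays whose columns carry 1 name (1.23, adjusted p = 0.0513). Against mESC, Dlx4 was higher in adult cells (1.93 ± 0.27, adjusted p = 0.000859), and embryo cells differed by 0.64 ± 0.27 (adjusted p = 0.124).

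Dlx4os, the noncoding gene that overlaps the 5′ end of Dlx4 on the other strand, was near background outside adult cells. It had log2 signals of 9.06, 7.91 and 7.83 in adult cells, 4.81, 4.55 and 5.11 in embryo cells, and 4.21, 3.92 and 4 in mESC. Only the adult arrays stand clear of background. The difference between adult and embryo cells was 3.44 ± 0.32 (adjusted p = 0.000406), against an embryo level at the control median, and it was 3.05 without adult replicate 1. The sources used here do not say whether the probes keep overlapping strands apart, so Dlx4 and Dlx4os may share signal where they overlap. The same limit applies to Dlx1 with Dlx1as, and to Dlx6 with its antisense genes.

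Dlx5, a gene of the lower jaw and of bone-forming cells, had signals of 10.4, 10.97 and 10.96 in adult cells, 9.09, 9.24 and 10.26 in embryo cells, and 6.07, 5.8 and 5.73 in mESC. The adult and embryo ranges come within 0.14 log2 units of each other, through adult replicate 1 and embryo replicate 3. The difference of 1.25 ± 0.31 (2.37-fold) was called with adjusted p = 0.0306, but this call was among the least steady. It was lost without any one of adult replicates 2 and 3, embryo replicates 1 and 2, or the 3 mESC arrays (adjusted p = 0.0507 to 0.108, differences 1.03 to 1.25), in the fit of the adult and embryo arrays alone (adjusted p = 0.0993), in an unmoderated fit (adjusted p = 0.0784), and after averaging the like-named embryo arrays (1.06, adjusted p = 0.0946). Against mESC, Dlx5 was higher by 4.91 ± 0.31 in adult cells (adjusted p = 1.34e-05) and by 3.66 ± 0.31 in embryo cells (adjusted p = 9.95e-05).

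Dlx6, the partner of Dlx5, had signals of 7.34, 7.18 and 6.11 in adult cells, 4.62, 4.85 and 4.85 in embryo cells, and 4.35, 4.27 and 4.3 in mESC. The embryo arrays lie at the control median while the adult arrays exceed it by 1.3 to 2.53. Dlx6 was higher in adult than in embryo cells by 2.1 ± 0.29 (adjusted p = 0.00218), a size that may understate the change, and it stayed called under all 21 alternatives, with 1.87 without adult replicate 1. Embryo cells and mESC differed by 0.47, with a 95% interval of -0.2 to 1.13 (adjusted p = 0.272). For Dlx5 the embryo cells and mESC did differ, as given above, and the difference between the 2 partners in this respect was not tested.

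Dlx6os1, the noncoding gene across Dlx6, had adult signals of 5.96, 7.65 and 7.59, embryo signals of 4.9, 4.94 and 5.09, and mESC signals of 4.59, 4.64 and 4.71. Adult replicates 2 and 3 were above the middle range of the controls, and adult replicate 1, the lowest adult array, was inside it. The difference between adult and embryo cells was 2.09 ± 0.4 (adjusted p = 0.0107) and was 2.64 ± 0.08 without that array. The call was lost in the fit of the adult and embryo arrays alone (adjusted p = 0.0552). Dlx6os2, a shorter antisense gene within Dlx6, stayed under the control median in every group, with means of 3.97 in adult cells, 3.52 in embryo cells and 3.62 in mESC.

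Dlx1 and Dlx2, whose combined loss in mice removes upper molars, showed no called difference between the dental groups. Dlx2 had signals of 8.58, 9.06 and 8.9 in adult cells, 8.15, 8.48 and 9.06 in embryo cells, and 5.15, 5.45 and 5.4 in mESC. The dental groups overlap and both lie far above mESC. Its adult minus embryo difference was 0.28, with a 95% interval of -0.25 to 0.82 (adjusted p = 0.531), so a doubling lies outside the interval. Relative to mESC, Dlx2 was higher by 3.51 ± 0.23 in adult cells (adjusted p = 1.64e-05) and by 3.23 ± 0.23 in embryo cells (adjusted p = 4.2e-05).

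Dlx1 signals were 5.97, 6.09 and 5.97 in adult cells, 6, 6.17 and 6.63 in embryo cells, and 5.26, 5.44 and 5.3 in mESC. The difference between the dental groups was -0.26, with an interval of -0.61 to 0.09 (adjusted p = 0.347). Both dental groups lay above all mESC arrays by less than the size required for a call, adult cells by 0.68 ± 0.15 (adjusted p = 0.00883) and embryo cells by 0.93 ± 0.15 (adjusted p = 0.00264). The embryo difference passed that size without embryo replicate 1 (1.07), with median centring (1.07), and after averaging the like-named embryo arrays (1.02). The brighter of the 2 clusters of Dlx1as, the noncoding gene opposite Dlx1, had 6.6, 6.6 and 6.62 in adult cells, 7, 7.23 and 8.1 in embryo cells, and 4.45, 4.72 and 4.63 in mESC. It was the only 1 of the 3 antisense genes drawn beside the Dlx pairs with all adult arrays below all embryo arrays (-0.84 ± 0.25, adjusted p = 0.0638), and it was called lower only without embryo replicate 1 (-1.06, adjusted p = 0.0272). Against mESC it was higher in adult (2.01 ± 0.25, adjusted p = 0.000473) and in embryo cells (2.84 ± 0.25, adjusted p = 0.000126).

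**Figure D2:**
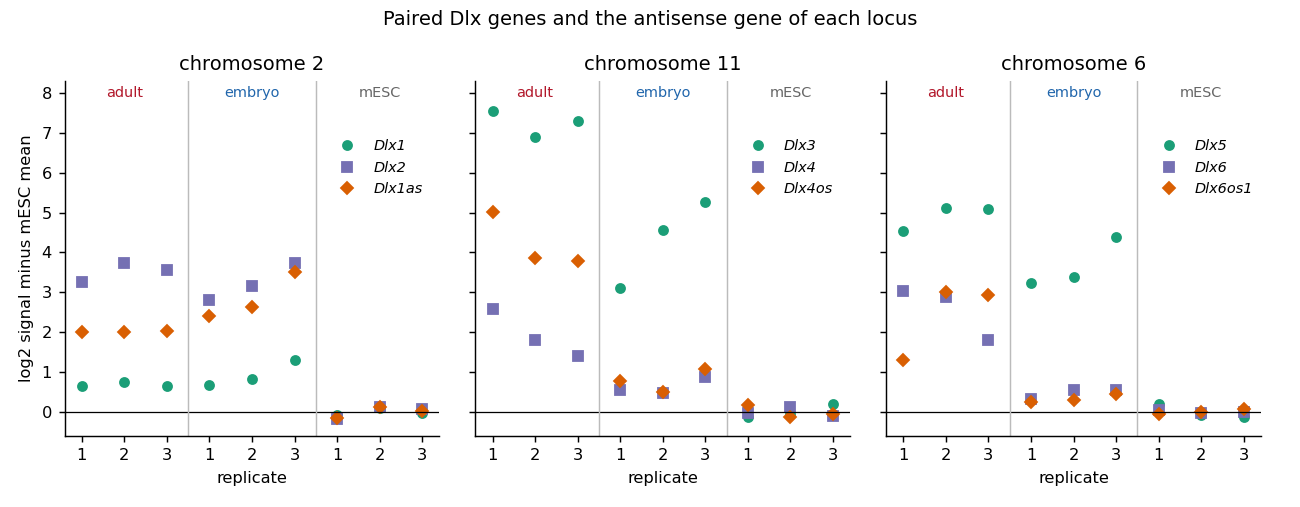
Log2 signal minus the gene's own mean on the mESC arrays (vertical axis) for both Dlx genes and the antisense gene of each locus, on each adult, embryo and mESC array (horizontal axis, by replicate). In embryo cells Dlx6os1 lies near 0 (mean 0.33) and Dlx4os somewhat above it (mean 0.78). Both lie well above 0 in adult cells, whereas Dlx2 and Dlx1as are high in both dental groups.

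Msx2, a gene of dental epithelium and of the ameloblasts that make enamel, had signals of 9.47, 11.18 and 11.18 in adult cells, 8.6, 9.26 and 10.63 in embryo cells, and 4.53, 5.13 and 4.99 in mESC. It varied most of the 8 within the adult group, where replicate 1 is the low array, and the dental groups overlap. The adult minus embryo difference was 1.11, with an interval of -0.3 to 2.53 (adjusted p = 0.31), which spans 0 and reaches well past a doubling. Without adult replicate 1 it was 1.68 (adjusted p = 0.0956). Msx2 was higher than in mESC by 5.73 ± 0.61 in adult cells (adjusted p = 0.000199) and by 4.61 ± 0.61 in embryo cells (adjusted p = 0.00101), with mESC at background, so both may understate the change.

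Msx1, which in the tooth germ is mainly a gene of mesenchyme, was close to background throughout. Its signals were 5.93, 5.46 and 5.02 in adult cells, 4.92, 4.92 and 4.81 in embryo cells, and 4.25, 4.47 and 4.67 in mESC. All adult arrays exceed all embryo arrays, as 10.4% of all clusters did, but the difference of 0.59 ± 0.21 (interval 0.09 to 1.08) was not called (adjusted p = 0.12). Adult cells were called higher than mESC at 1.01 ± 0.21 (adjusted p = 0.00726), a call that ended on leaving out adult replicate 1 (0.78) or mESC replicate 1 (0.9), under array weights (0.87) and under a block for the day described further on (0.76). Msx3, another Msx gene that is known from the neural tube, was under the control median in all groups, with means of 2.97, 3.04 and 3.12 in adult cells, embryo cells and mESC. The same held for Msx1os, opposite Msx1, at 3.66, 3.88 and 3.7.

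Set against mESC, 7 of the 8 genes were called higher in adult cells and 4 of the 8 in embryo cells, and none lower. The background was 6.86% of clusters higher and 10.3% lower in adult cells, and 4.89% higher and 6.1% lower in embryo cells (17.1% and 11% called in all). The 7 were all but Dlx1, and the 4 were Dlx2, Dlx3, Dlx5 and Msx2. All 3 arrays lay above all mESC arrays for 8 of 8 genes in adult cells and for 8 of 8 in embryo cells, where this held for 16.9% and 15.6% of all clusters. The reverse held for 30.6% and 26.4% of clusters, so 47.5% and 42% did not overlap in either direction. Both comparisons use the same mESC arrays, and the median difference over the 8 genes was 3.04 in adult and 2.08 in embryo cells, against -0.07 and -0.073 over all clusters. The negative-control medians of the embryo arrays (4.9, 4.92 and 5.24) also all lay above those of mESC (4.74, 4.59 and 4.45). On the adult arrays they were 4.74, 4.86 and 4.92. The embryo minus mESC differences of Dlx4 (0.64), Dlx6 (0.47) and Msx1 (0.42) are small and lie at background. The part of the control shift in them was not tested. In adult against embryo cells, 5 of 8 genes had all adult arrays above all embryo arrays and 0 had the reverse, where 10.4% and 17.4% of all clusters did (27.8% in either direction).

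**Figure D3:**
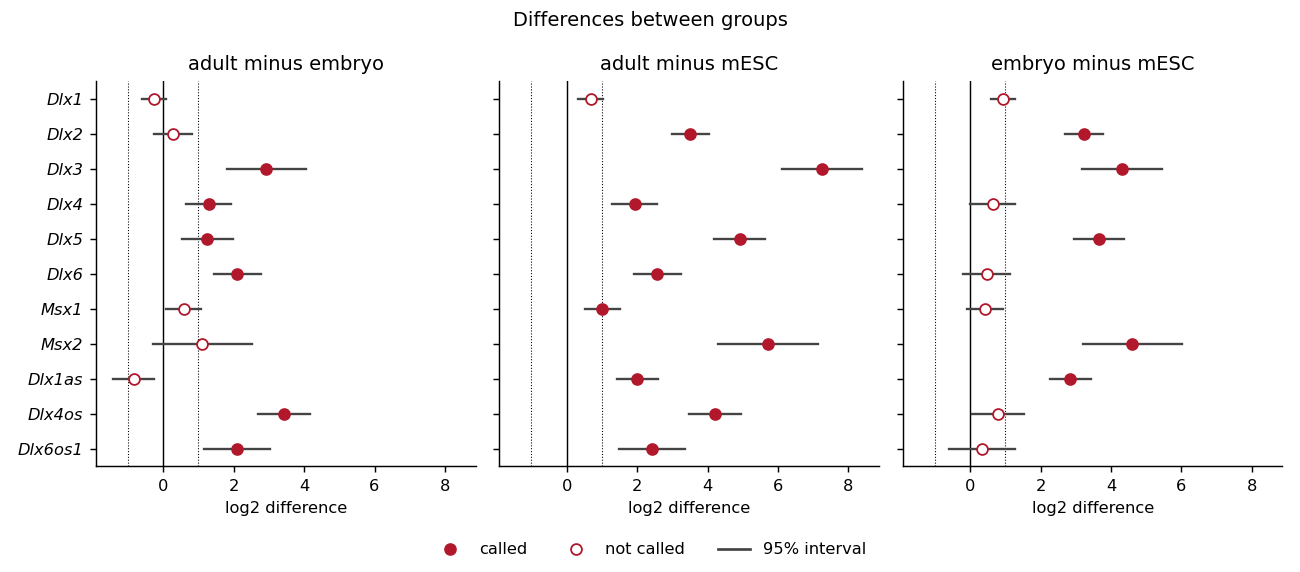
Log2 difference (horizontal axis) of each Dlx and Msx gene and of 3 antisense genes for adult minus embryo, adult minus mESC and embryo minus mESC, with 95% intervals of the moderated fit. Filled points are called, open points are not, and dotted lines mark a difference of 1 in either direction. Dlx3, Dlx4, Dlx5, Dlx6, Dlx4os and Dlx6os1 are called in the left panel.

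The authors' deposited table of embryo against adult cells, which gives negative folds where embryo is lower, lists 0 of the 8 genes at an adjusted p under 0.05 and 4 at an unadjusted p under 0.05. Of all 39601 clusters with a symbol, 2.4% and 20.2% passed those thresholds in the authors' deposited table. For Dlx3 the authors' deposited table gives a fold of -7.12 with adjusted p = 0.163, and for Dlx6 -5.32 with adjusted p = 0.117. The authors' deposited table gives -3.46 for both Dlx5 and Msx2, against 2.37-fold and 2.16-fold differences of plain means here. It summarises each group by a bi-weight mean, which gives less weight to an array far from the others. Over all 3 conditions, the authors' deposited table lists 7 of the 8 at an adjusted p under 0.05, all but Msx1, and 29.3% of all clusters. Against mESC the authors list 7 of the 8 at that threshold in adult cells, again all but Msx1, and 5 in embryo cells. Of all clusters, 21.8% and 15.6% passed there. Among the 5 is Dlx6 (fold 1.46, adjusted p = 0.0409), which was not called here. That threshold sets no size of difference, as the calls here do.

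The members differed in which adult array was highest. Adult replicate 1 was the highest adult array for Dlx3, Dlx4, Dlx6 and Msx1 and the lowest, or tied for lowest, for Dlx1, Dlx2, Dlx5 and Msx2. Gene lists also split on this array. It was the highest adult array for 12 of 12 dental mesenchyme markers (1 of them a tie) and for 6 of 7 osteoblast and odontoblast markers, and the lowest for 9 of 10 dental epithelium markers. Yet it was also the highest adult array for 8 of 8 enamel genes, a list described further on. Among these, Mmp20 had 14.95, 13.16 and 13.49 and Amtn 14.01, 4.39 and 5.64 in adult cells, whereas Amelx had 19.12, 18.98 and 18.96, a small margin. What sets this array apart was not tested. The log2 of the summed mesenchyme signal was 16.88, 14.92 and 14.44 in adult cells, 13.22, 11.54 and 11.82 in embryo cells, and 10.69, 10.99 and 11.75 in mESC. For osteoblast and odontoblast markers it was 13.6, 11.09 and 10.97 in adult and 7.42 to 8.15 in embryo cells, where the means of Ibsp, Sp7, Dspp, Dmp1 and Phex were below the control median. For macrophage markers it was 13.73 to 14 in adult and 8.52 to 10.15 in embryo cells, where the means of C1qa, C1qb, Adgre1 and Ptprc were below that median. In adult against embryo cells 6 of 12 mesenchyme, 5 of 7 osteoblast and odontoblast, 7 of 7 macrophage and 3 of 10 epithelium markers were called higher and 0 lower. The epithelial sum was 16.91 to 17.67 in adult, 16.75 to 17.47 in embryo and 15.17 to 15.41 in mESC. The part of these other cells in the Dlx and Msx differences was not tested. Among embryo arrays, replicate 3 was the highest for Dlx1, Dlx2, Dlx3, Dlx4, Dlx5 and Msx2, and tied for highest for Dlx6. That array also had the highest negative-control median of the embryo arrays (5.24, against 4.9 and 4.92). Its epithelial sum was the highest of them too (17.47, against 16.75 and 16.76). Without embryo replicate 3 the adult minus embryo difference was 3.4 for Dlx3, 1.61 for Dlx5 and 1.68 for Msx2.

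**Figure D4:**
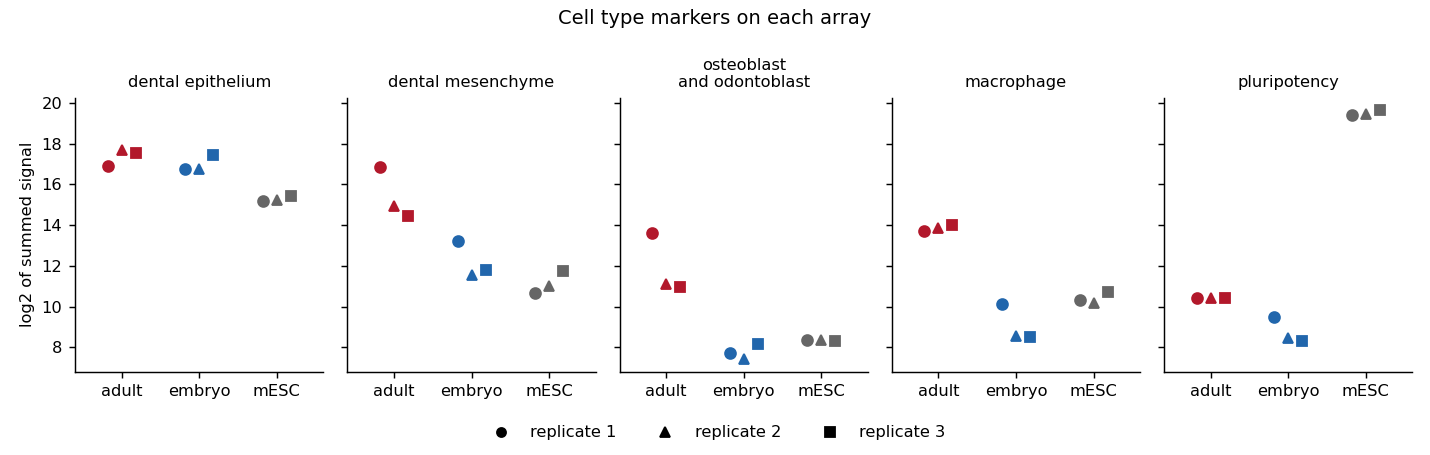
Log2 of the summed signal (vertical axis) of each list of cell type markers on the 3 adult, 3 embryo and 3 mESC arrays, with symbols for the replicates. Adult replicate 1 stands at 16.88 for mesenchyme and 13.6 for osteoblasts and odontoblasts, above the other adult arrays, and is the lowest adult array for epithelium.

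The column names of a second deposited table hold digits taken here to mean a day of processing, and both days held adult and embryo arrays. All 3 mESC arrays fell on the second day, so comparisons with mESC are partly mixed with the day. Within the first day (2 adult arrays and 1 embryo array) the adult minus embryo difference was 2.65 for Dlx3, 1.71 for Dlx4, 1.45 for Dlx5 and 2.41 for Dlx6. Within the second day (1 adult array and 2 embryo arrays) it was 3.1, 0.7, 1.29 and 1.38 for the same genes. All 4 differences keep their direction within each day, and those of Dlx4 and Dlx6 differ between the days by more than 1.5 times. Dlx4os differed by 3.93 and 2.87, and Dlx6os1 by 1.86 and 2.59. With the day as a block, 4 of the 8 genes were called for adult minus embryo, as without it. For adult minus mESC 6 were called, against 7 without the block, and for embryo minus mESC 4, as without it.

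Genes beside the loci were looked at in the same fit. The closest coding clusters of a single symbol on either side of the 5 loci (Metap1d, Itga6, Itga3, Tac4, Sem1, Sdhaf3, Cytl1, Stx18, Sptlc1 and Drd1, chosen after the values of the members were seen) differed between adult and embryo cells by -0.67 to 0.76. Limma called 0 of these 10, with 6 at an unadjusted p under 0.05, as were 26.7% of all clusters. Against mESC, 1 of the 10 was called higher in adult cells and 4 in embryo cells, and 0 lower. Of all clusters, 6.86% and 4.89% were called higher in these comparisons. Itga6, an integrin gene of basal epithelium 198861 bases from the Dlx1 and Dlx2 pair, was at -0.67 ± 0.21 (adjusted p = 0.0712).

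Among signals upstream of Dlx and Msx, Bmp4, which encodes a BMP ligand that induces Msx genes in the tooth germ, was the 1 of 18 genes called between the dental groups. It had signals of 10.17, 9.3 and 9.39 in adult cells, 7.03, 7.53 and 6.86 in embryo cells, and 6.91, 7.26 and 7.51 in mESC, and rose by 2.48 ± 0.28 in adult against embryo cells (adjusted p = 0.000967). The embryo and mESC arrays overlap. The list's median was -0.12, and 11 of the 18 were called higher in adult cells than in mESC and 10 in embryo cells than in mESC, among them Bmp7 (5.14 ± 0.17 and 5.06 ± 0.17) and the BMP target gene Id1 (2.26 ± 0.24 and 2.72 ± 0.24). A list of 9 genes was drawn up around the endothelin branch, which switches on Dlx5 and Dlx6 in the lower jaw. Of these, 2 were higher and 1 (Nr2f2) lower in adult than in embryo cells, and the listed genes need not act in the same direction. The endothelin receptor gene Ednra (2.64 ± 0.58, adjusted p = 0.0184) and its effector gene Mef2c (1.95 ± 0.38, adjusted p = 0.0111) were the 2, and both were highest on adult replicate 1, as mesenchyme markers were. The call of Ednra was lost without embryo replicate 3 (2.72, adjusted p = 0.0518). The ligand gene Edn1 and the target gene Hand1 were under the control median in all groups, while the target gene Hand2 had 6.86, 5.43 and 4.99 in adult cells, again highest on adult replicate 1 (0.92 ± 0.45 against embryo cells, adjusted p = 0.248). Nr2f2, which encodes the nuclear receptor COUP-TFII, fell to 6, 6.12 and 6.13 in adult cells, against 8.77, 8.5 and 9.7 in embryo cells (-2.91 ± 0.27, adjusted p = 0.000425).

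Of 19 other homeobox genes of tooth and jaw, 2 were higher and 2 lower in adult than in embryo cells (1 lower without adult replicate 1), with a median of 0.29. Among the genes called higher, Barx2 rose by 1.34 ± 0.37 (adjusted p = 0.0474), a call lost without embryo replicate 3 (1.38, adjusted p = 0.108). Pitx1, a gene of oral epithelium and lower jaw (-1.29 ± 0.17, adjusted p = 0.00197), and Isl1, a marker of incisor epithelium (-1.08 ± 0.28, adjusted p = 0.0371), fell. The call of Isl1 is the one lost without adult replicate 1 (-0.75, adjusted p = 0.0374), and it was also lost without embryo replicate 3 (-0.92, adjusted p = 0.122). Of the 19, 6 had means under the control median in adult cells, 9 in embryo cells and 11 in mESC, and adult replicate 1 was the highest adult array for 8 and the lowest, or tied for lowest, for 7.

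Enamel, bone and dentin genes include known targets of Dlx and Msx factors. Of 8 enamel genes 5 were called higher in adult than in embryo cells and 0 lower, with a median of 6.81 (5.34 without adult replicate 1), and Amelx, which encodes amelogenin, differed by 13.04 ± 0.73 (adjusted p = 5.05e-05). Of 9 bone and dentin genes 7 were called higher and 0 lower, with a median of 3.78 (2.88 without adult replicate 1), led by Col1a1 (6.45 ± 0.84, adjusted p = 0.00179) and the dentin gene Dspp (6.44 ± 0.52, adjusted p = 0.000213). Col1a1 was also among the mesenchyme markers that peaked on adult replicate 1. Among binding partners, Maged1, whose product binds both Dlx and Msx proteins, had a difference within its spread between the dental groups (0.01 ± 0.15, adjusted p = 0.987) and was higher than in mESC in adult (2.23 ± 0.15, adjusted p = 1.57e-05) and embryo cells (2.22 ± 0.15, adjusted p = 2.69e-05). Tle1, which encodes a Groucho-type corepressor, was lower in adult cells, with 7.24, 8.41 and 8.41 against 10.37, 10.6 and 10.17 in embryo cells (-2.36 ± 0.31, adjusted p = 0.00196).

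The genes whose centred signals lay closest to each member over the 9 arrays, by root mean square difference in log2 units, were named by a fixed rule, as a description. This measure grows with the span of a gene's values, so it is not compared between members. For Dlx2 they were Epb41l3 (0.16), the netrin-family receptor gene Neo1 (0.17) and the FGF receptor gene Fgfr1 (0.18). For Dlx3 they were the transcription factor gene Maf (0.6), the tight junction gene Cldn1 (0.62) and the guidance gene Sema5a (0.65). Dlx4 was closest to the collagen gene Col11a1 (0.14), Vipr2 (0.18) and Sobp (0.19), Dlx5 to the matrix gene Npnt (0.3), Serpinb5 (0.31) and Mbnl1 (0.33), and Dlx6 to Rnf144b (0.19), Prr16 (0.25) and the laminin gene Lama3 (0.26). Msx1 was closest to Col4a2 (0.07), Stat5b (0.09) and the BMP inhibitor gene Smad6 (0.11), and Msx2 to Ppargc1a (0.37), Lgi2 (0.44) and Lratd1 (0.45). Dlx1 was left out because its group means span only 0.93. No gene of a Dlx or Msx family was among the 21 named.

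**Figure D5:**
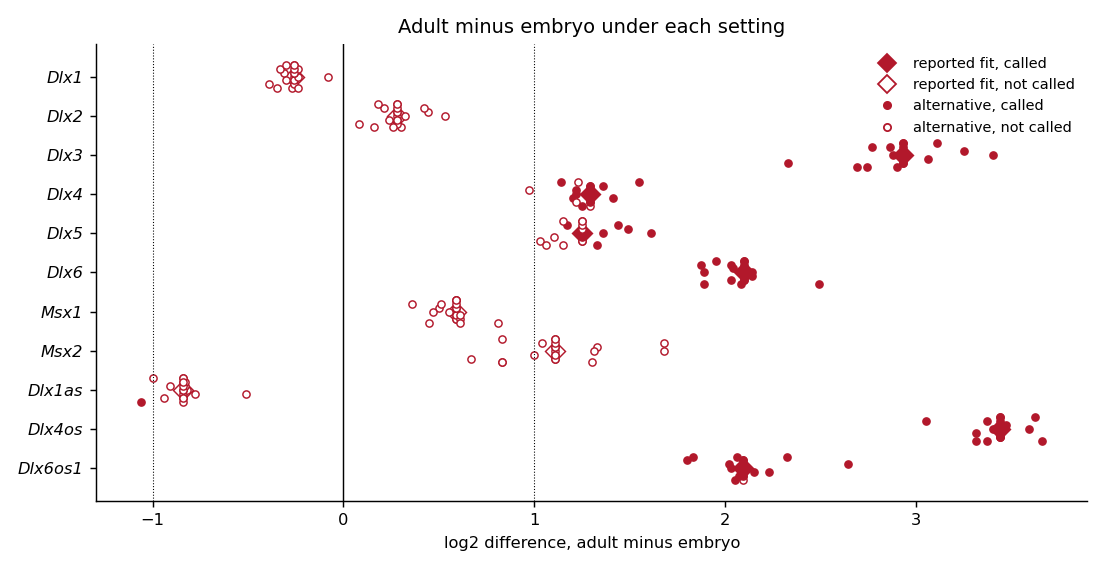
Log2 difference, adult minus embryo (horizontal axis), of the 8 genes and 3 antisense genes in the reported fit (diamonds) and under each alternative setting (circles), filled where the gene was called. Dlx3, Dlx6 and Dlx4os are filled throughout, and Dlx5 is open in 10 of its 21 alternatives.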

How the data were processed

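Total RNA of 9 samples in 3 groups was measured on Affymetrix mouse transcriptome arrays. One log2 signal per cluster and array was deposited by the authors. The submitters' processing notes list RMA, Affymetrix Expression Console and Transcriptome Analysis Console without versions, while the deposited tables name SST-RMA. Such processing aligns the arrays, which hides a shift common to most genes. The authors also deposited, per the file headers, bi-weight means, a standard deviation per group (a score on the log2 scale, not used here), signed linear fold changes, and p-values of an analysis of variance. No genome build is named in these sources.

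Groups came from the sample titles. Of 65956 clusters, 36559 carried 1 symbol, 3042 several and 26355 none, and 1122 symbols were updated through RefSeq names. The 39601 clusters with a symbol entered limma 3.58.1 (in R 4.3.3, a no-trend moderated fit of 3 group means), tested on simulated data. Where a gene had several clusters, the brightest was used. The rule for named genes admits all 8 members, up to 4 called genes per list by size of the adult minus embryo difference, any gene of a list of 12 or fewer, their antisense genes, Msx3, Sox2 and 3 nearest patterns per member. Other list genes named were picked after their values were seen, and 1 gene that the rule admits is not reported here. The members, gene lists and tests were chosen with earlier results of these data known. The small number of arrays limits precision. Alternatives covered the clusters tested, normalisation, variance model, arrays left out, replicate block and processing day. The 9 columns of the second deposited table hold the same values, under names that show the group but not the sample, so the day was used only with those columns. There, 2 embryo columns share a name, and whether they are 1 sample is not settled.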

Additional observations from a re-analysis of the deposited data

How the results depend on the processing

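The count of members called higher in adult than in embryo cells was 4, and it was 2 in the fit of those 2 groups' arrays alone and 2 after averaging the like-named embryo arrays, a setting chosen after seeing the data. With 1 array left out it ranged from 2 (without embryo replicate 2) to 4. The 2 genes that stayed called under all alternatives were Dlx3 and Dlx6. Among clusters brighter than the negative controls, which drops Dlx4, the median difference of the members was 3.51 for adult minus mESC and 3.23 for embryo minus mESC, against 3.04 and 2.08. Of the alternative values of the members' counts and medians, the total over all lists and the count of all clusters, those 5 moved and 247 stayed within 1.5 times or within the spread of the arrays, and no called difference changed sign. The mean over a member's clusters equals the reported value, since each has 1 cluster. Deviations of same-numbered arrays of different groups correlated at -0.08 to 0.154, and those of differently numbered arrays at -0.126 to 0.113. With 3 arrays per group, these values cannot show whether the numbers pair the samples. With the replicate block, 4, 7 and 4 members were called for adult minus embryo, adult minus mESC and embryo minus mESC, as without it, and 2492 clusters for adult minus embryo against 2543. Counts of single lists moved by over 1.5 times in 53 cases, such as 2 against 4 for the other homeobox genes. Levels near the control median, those of Dlx4, Dlx6 and Msx1 in embryo cells and of most members in mESC, limit what can be said there.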
